A study of Drosophila melanogaster with 2 samples.

Results

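Of the 1449 Poxn-eGFP peaks on the chromosome arms of Drosophila melanogaster, 304 (20.98%) had their summit at a head-to-head pair of protein-coding promoters. A peak was counted when its summit, the base of highest signal, was at most 500 bp from the start of transcription (TSS) of a minus-strand gene and from that of a plus-strand gene. The minus-strand TSS had to be at the lower coordinate, so that the genes were transcribed away from each other. The peaks came from the thresholded list of the pair of replicates, which held 1488 peaks, 39 of them off the arms. Taking for each summit the pair with the smallest summed distance gave 298 distinct pairs and 596 genes. More than 1 pair met the rule at 12 peaks.

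Chromatin immunoprecipitation and sequencing of Pox neuro (Poxn) was performed in whole embryos aged 0 to 24 h of the strain Poxn-GFP, which carries an insertion targeting Poxn and expresses a Poxn-eGFP fusion protein. There were 2 biological replicates, both of this genotype, and no other group, so no test between samples was possible and all values below are descriptions. The sample descriptions give an antibody against GFP, whereas the antibody field names Poxn, and the control experiment that they name was not used here. All cell types of the embryo were pooled over the whole age range, the sources used here give neither the sequence that drives the fusion nor the read depth, and the signal of a peak is the authors' enrichment value, which ranks peaks within a list.

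Poxn is a transcription factor with a paired domain, known for making sensory bristles chemosensory. In the compact fly genome many neighbouring genes share a short stretch of DNA from which they are transcribed in opposite directions, and genes of general cell functions are common among them. Such promoters are known to be nucleosome-depleted in many cell types and to bind factors such as DREF, BEAF-32 and M1BP, which read short sequence words of housekeeping promoters.

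The stretches of DNA between both TSSs are printed for 6 pairs because they were among those with the highest signals and hold matches to the words that were searched. Each is the plus strand of the Release 6 assembly (dm6), from RefSeq, read 5' to 3' from the base after the minus-strand TSS to the base before the plus-strand TSS, and none contains an annotated exon. Capitals mark matches, on either strand, to the words listed in the next paragraph. The first gene named is on the minus strand.
Tcs5 and CHMP2B, chr3L:5139396-5139618: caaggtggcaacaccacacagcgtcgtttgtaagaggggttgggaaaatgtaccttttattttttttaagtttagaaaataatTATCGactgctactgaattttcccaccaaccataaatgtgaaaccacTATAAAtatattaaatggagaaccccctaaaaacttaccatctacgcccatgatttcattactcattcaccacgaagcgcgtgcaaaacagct
Art3 and mRpS10, chr3R:15229409-15229664: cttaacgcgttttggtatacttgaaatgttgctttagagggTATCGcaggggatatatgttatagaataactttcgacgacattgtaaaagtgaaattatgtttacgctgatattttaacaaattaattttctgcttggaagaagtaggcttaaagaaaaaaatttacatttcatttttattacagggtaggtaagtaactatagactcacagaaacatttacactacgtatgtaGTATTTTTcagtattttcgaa
CG13390 and CG17294, chr2L:8376798-8377034: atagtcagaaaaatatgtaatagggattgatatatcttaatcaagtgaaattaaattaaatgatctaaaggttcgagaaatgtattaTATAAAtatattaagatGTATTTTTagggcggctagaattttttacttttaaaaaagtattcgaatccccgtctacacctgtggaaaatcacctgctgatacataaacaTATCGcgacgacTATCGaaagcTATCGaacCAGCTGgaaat
Atat and Shc, chr3L:9426759-9427009: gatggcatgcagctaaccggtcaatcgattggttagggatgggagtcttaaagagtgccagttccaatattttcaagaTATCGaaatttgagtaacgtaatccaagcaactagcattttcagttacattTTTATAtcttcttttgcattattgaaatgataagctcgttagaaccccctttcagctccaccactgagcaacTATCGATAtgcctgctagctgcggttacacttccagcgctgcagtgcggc
Mkk4 and SLIRP2, chr3R:8650797-8651083: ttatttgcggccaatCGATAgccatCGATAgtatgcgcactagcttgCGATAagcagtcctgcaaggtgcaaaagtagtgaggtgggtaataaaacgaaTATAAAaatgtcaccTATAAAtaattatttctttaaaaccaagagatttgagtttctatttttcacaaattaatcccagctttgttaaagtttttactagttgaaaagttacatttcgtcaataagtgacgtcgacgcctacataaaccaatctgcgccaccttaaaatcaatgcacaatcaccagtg
brm and Arl1, chr3L:15982870-15983134: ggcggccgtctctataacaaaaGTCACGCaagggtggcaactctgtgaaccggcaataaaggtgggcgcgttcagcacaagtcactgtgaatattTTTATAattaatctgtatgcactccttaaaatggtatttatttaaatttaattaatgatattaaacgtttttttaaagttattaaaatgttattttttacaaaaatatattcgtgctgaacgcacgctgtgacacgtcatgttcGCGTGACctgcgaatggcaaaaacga

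The words were the DRE, TATCGATA, bound by DREF, and its shorter core CGATA, which lies within every DRE. The others were motif 1 (GGTCACAC), the E-box CAGCTG, motif 6 (GTATNTTT), the GAGA word GAGAGAG, the TATA word TATAAA, the Zelda word CAGGTAG, the Pax2/5/8 core GTCACGC and a control word, TTACGTAA. In the Tcs5 and CHMP2B stretch the reverse of CGATA lay just before the summit at base 103. In the Atat and Shc stretch the summit was base 126, midway between the TSSs, and the DRE lay on the side of Shc, which encodes an adaptor protein of receptor tyrosine kinases. The CG13390 and CG17294 stretch held 3 copies of CGATA on the side of CG17294, all on the minus strand. The 3 copies between Mkk4, a kinase of the JNK pathway, and SLIRP2 lay on the side of Mkk4, all on the plus strand. The stretch between brm, the ATPase gene of the SWI/SNF-type Brahma remodeller, and Arl1, a GTPase of the Golgi, held the Pax core on each strand, near either TSS and away from the summit at base 152. A match is a run of letters and was not taken as a site of binding.

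Candidate summits at head-to-head promoters were in the thresholded list more often than those at other promoters. The authors' ranked list, from which the peaks were drawn, held 143270 candidates on the arms, of which 1.01% were in the thresholded list. At head-to-head promoters 304 of 1766 candidates were in it (17.2%). At other protein-coding promoters, with a summit within 500 bp of a TSS that did not meet the rule, the count was 481 of 15080 (3.19%). Farther than 500 bp from any protein-coding TSS it was 664 of 126424 (0.525%). The share depended on the distance limit and on the IDR limit. With 250 bp it was 30.5% at head-to-head promoters against 4.92% at other promoters, with 1000 bp 7.63% against 2.23%, and with a −log10 of the irreproducible discovery rate (IDR), which the authors give for each peak, of at least 3 it was 8.49% against 1.39%. At the 500 bp limit head-to-head promoters gave 10.5% of the 16846 promoter candidates and 38.7% of the 785 promoter peaks.

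The order of the classes was the same in each replicate taken alone. In the list of replicate 1 the shares were 11.7% at head-to-head promoters (173 of 1478), 2.22% at other promoters and 0.386% elsewhere. In the list of replicate 2 they were 18.1% (259 of 1433), 3.15% and 0.391%. In the conservative joint list they were 16.0% (278 of 1737), 2.95% and 0.479%. Among only the 10000 candidates of highest signal the shares were 53.2% (299 of 562), 28.3% (469 of 1659) and 8.27%. These were closer in ratio than over all candidates, though farther apart in percentage points.

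**Figure D1:**
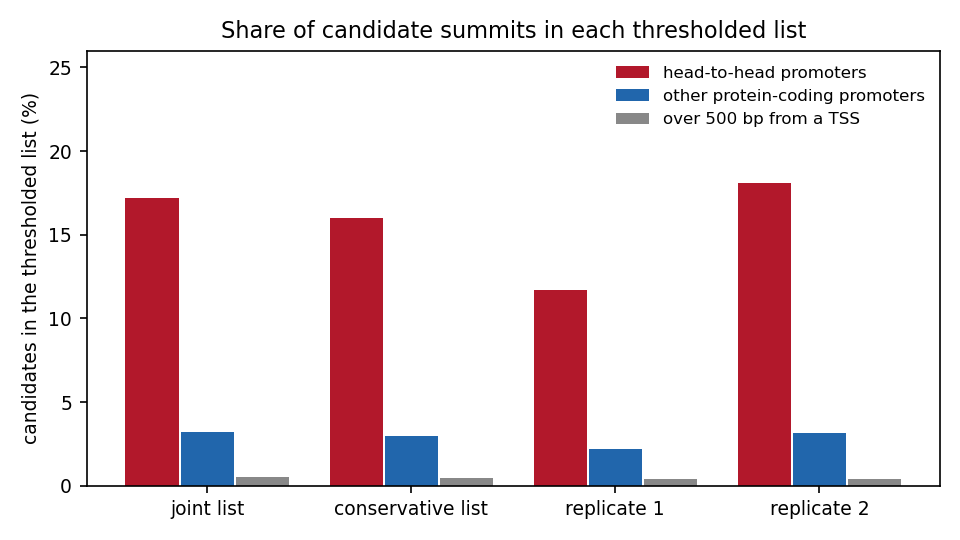
Share of candidate summits that passed into each thresholded list of the authors (y axis, percent), by class of position, for the joint list, the conservative list and each replicate. In every list the head-to-head class is the highest, with 17.2% in the joint list against 3.19% at other promoters. Bars are shares of candidates and carry no error between samples.

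The side of the TSS and base composition moved with these shares. With the summit between both TSSs, and so upstream of both genes, 248 of 956 head-to-head candidates were peaks (25.9%). At other promoters the share was 6.61% for summits upstream of the nearest TSS (415 of 6279) and 0.750% for those at or downstream of it (66 of 8801). Head-to-head summits outside the gap gave 6.91% (56 of 810). The median GC content of the window reaching 100 bp to each side of the summit was 32.8% at head-to-head peaks, 34.8% at other promoter peaks, 41.8% at head-to-head candidates outside the list and 47.8% at other promoter candidates outside it. Within windows of under 35% GC, 31.8% of head-to-head candidates were peaks (190 of 597) against 14.1% at other promoters. From 35 to 40% GC the shares were 24.8% and 6.15%, from 40 to 45% they were 8.96% and 2.30%, and from 45% they were 2.04% and 0.727%. The head-to-head share was the higher in all 4 ranges, and it fell from the lowest to the highest GC range in both classes. The part of base composition in the shares was not tested beyond these ranges.

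Counted by gene pair, 331 of 2667 annotated pairs with at most 1000 bp between their TSSs had a peak (12.4%), where a peak counted for every pair it met the rule with. The pre-mod(mdg4) locus, whose many gene models are joined by trans-splicing, gave 21 of these 331 through a single peak of signal 186 (3R 21365301 to 21365604). It was singled out after its values were seen. Without its pairs, a setting added after seeing the data, the count was 310 of 2630 (11.8%). In the list of replicate 1 alone 198 of the 2667 pairs had a peak (7.42%). Of the 2909 genes in a pair with a candidate summit, 617 had a peak (21.2%).

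Pairs of an intermediate gap had a peak most often. The share of pairs with a peak was 12.4% at gaps of up to 100 bp (53 of 429), 9.80% from 100 to 200 bp (35 of 357), 21.0% from 200 to 300 bp (114 of 542), 16.3% from 300 to 500 bp (109 of 667) and 2.98% from 500 to 1000 bp (20 of 672), each range including its upper end. A peak can count for several pairs, and by nearest pair there were 36 peaks beside the 53 pairs of the first range and 29 beside the 35 of the next. Without the pre-mod(mdg4) pairs the shares were 8% from 100 to 200 bp (28 of 350) and 14.9% from 300 to 500 bp (95 of 637), and the other ranges held none of them. The 500 bp limit leaves little room for a summit in the last range. Relative to the pairs that had any candidate summit the shares were 16.7%, 15.8%, 29.2%, 25.1% and 11.8%, in the same order of rank. The median gap at the 304 peaks was 276.5 bp, with quartiles of 218 and 368 bp and a range of 2 to 645 bp.

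**Figure D2:**
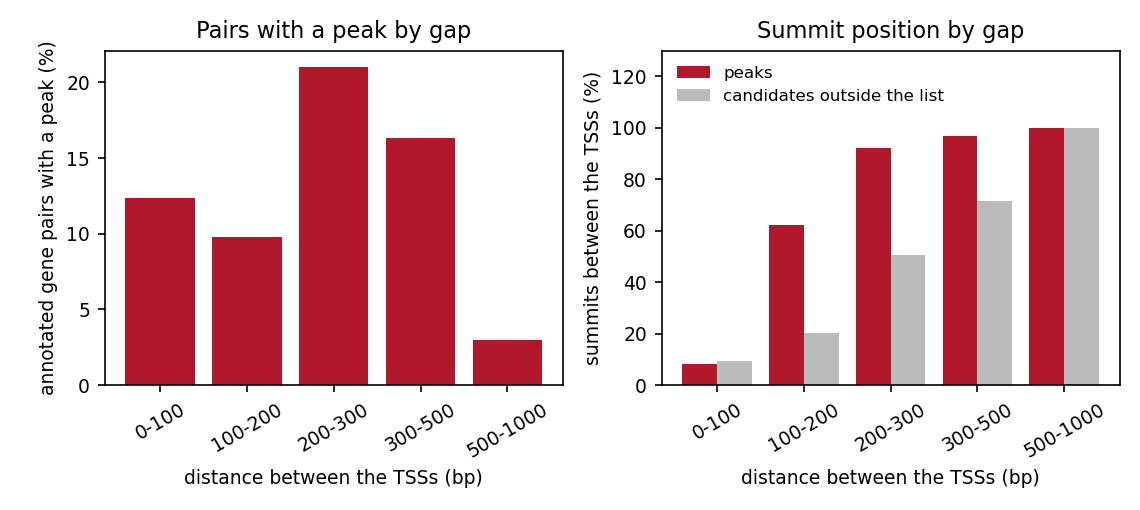
Left, share of annotated head-to-head pairs with a peak (y axis, percent) by the distance between their TSSs (x axis, bp). Right, share of summits that lie between the TSSs, for peaks and for candidates outside the list. Each range includes its upper end. Pairs 200 to 300 bp apart have a peak most often (21.0%), and in that range 92.2% of peak summits are between the TSSs against 50.6% of other candidates.

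The summits lay near the middle of the gap. The rule bounds the distance to both TSSs. It places the summit between them only at gaps over 500 bp, as at 23 peaks and 167 candidates outside the list. Over all gaps 248 of 304 summits (81.6%) were between the TSSs, against 708 of 1462 candidates outside the list (48.4%). The median distance from the midpoint was 54.25 bp at peaks and 151.75 bp at those candidates. Within 50 bp of the midpoint there were 140 peaks (46.1%) against 17.6% of the candidates, and within 100 bp 233 peaks (76.6%) against 34.1%. No side was favoured by a wide margin, with 142 summits nearer to the minus-strand TSS, 160 nearer to the plus-strand TSS and 2 at equal distance. The median distance was 97.5 bp to the nearer TSS and 192.5 bp to the farther. Where several TSSs met the rule, taking the smallest summed distance favoured TSSs on either side of the summit, at peaks and candidates alike. With the narrowest pair 74.3% of peak summits were between the TSSs, and with only the outermost TSS of each gene 74.9%. The share at candidates outside the list is not given for these settings.

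Position changed with the gap. At gaps of 200 to 300 bp the median distance from the midpoint was 30 bp, against 124 bp at candidates outside the list, and the nearer TSS was 96 bp away. From 300 to 500 bp, 97.0% of peak summits were between the TSSs, against 71.5% of candidates, and the nearer TSS was 116 bp away. From 500 to 1000 bp all summits of both kinds were between the TSSs, as the limit requires, and the peaks' nearer TSS was 180 bp away. From 100 to 200 bp the share between was 62.1% against 20.2%. At gaps of up to 100 bp it was 8.33% of 36 peaks against 9.55% of candidates, so there peaks and other candidates were alike in this count. The 56 summits outside the gap, 28 in each of the genes, lay a median of 53 bp inside the gene, at pairs with a median gap of 76 bp against 298 bp for the others. Most peaks were wide enough to reach a TSS, with 170 covering 1 TSS of the pair, 78 covering both and 56 covering neither, but 276 of the 304 were 304 bp wide, so their width carries little about the site.

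**Figure D3:**
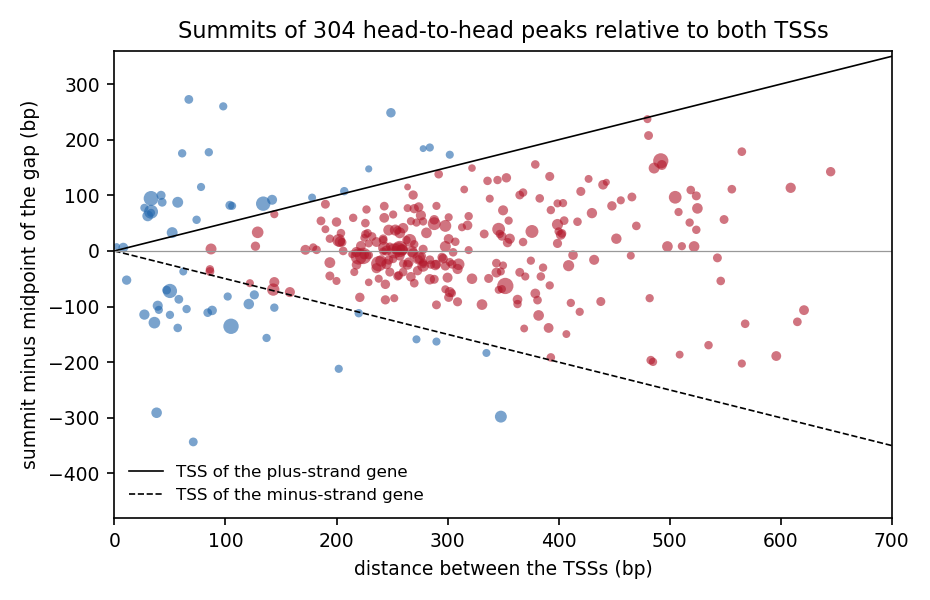
Each point is a head-to-head peak, placed by the distance between the TSSs (x axis, bp) and by the distance of its summit from the midpoint (y axis, bp), with positive values towards the plus-strand gene. The lines mark the TSSs, red points lie between them and blue points outside, and point area grows with signal. Points crowd around the midpoint at gaps of 200 to 300 bp, and 56 points lie outside the lines, mostly at short gaps.

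The extremes of the gap covered a wide range of signal, with the lowest value of all peaks at the narrowest gap. The narrowest gaps were at dpa and didum (2 bp, signal 4.55, at the second of their peaks, described below) and at SerRS and CG17260 (8 bp, 2L 3037261 to 3037564, signal 142). SerRS encodes seryl-tRNA synthetase. The 3 widest were at RnrS and CG34231 (615 bp, signal 89.7), Acbp1 and Piezo (621 bp, signal 148) and dpr14 and spidey (645 bp, signal 124). RnrS encodes the small subunit of ribonucleotide reductase and Piezo a mechanosensitive channel. The peaks just inside the 500 bp limit, by the farther TSS, were at CG14968 and ZnT63C (487 bp, signal 147), beta4GalNAcTB and Cpsf100 (485 bp, signal 63.3) and Rok and RpS19a (477 bp, signal 58.0). Those just outside were at CG12929 and RpL31 (503 bp, signal 50.1), Jupiter and CG14710 (511 bp, signal 53.9) and lin-52 and CG15771 (511 bp, signal 165).

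Signal ranged from 4.55 to 627, with a median of 94.7 and quartiles of 69.5 and 155. The median was 83.5 at other promoter peaks and 76.1 at peaks elsewhere, and 19.9 at head-to-head candidates outside the list, which are not independent of how the list was chosen. The 10 head-to-head peaks of highest signal all overlapped a peak in the thresholded list of each replicate.

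The first of the 10 was at Tcs5, a kinase of a tRNA-modifying complex, and CHMP2B, an ESCRT-III subunit of membrane remodelling (3L 5139388 to 5139605). Its signal was 627 in the joint list, 246 in replicate 1 and 385 in replicate 2. The peak at CG5611 and Mtl had a signal of 614.4 (3R 27636051 to 27636278), with 269 in replicate 1 and 344 in replicate 2. That at Art3, a protein arginine methyltransferase, and mRpS10, a protein of the mitochondrial ribosome, had 613.7 (3R 15229420 to 15229652), with 282 and 334. These 3 were close in joint signal and ordered differently in the replicates, where Art3 and mRpS10 had the highest value in replicate 1 and Tcs5 and CHMP2B in replicate 2.

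The peak at CG7601 and CIA30, an assembly factor of respiratory complex I, had a signal of 607 (3R 29736739 to 29736957), with 233 in replicate 1 and 381 in replicate 2. The fifth lay at Chro, which encodes the chromodomain protein Chromator, and Ssl1, a subunit of the general transcription factor TFIIH (3L 22878785 to 22879007). Its signal was 535, with 241 in replicate 1 and 294 in replicate 2, and its summit was 83 bp inside Chro and 188 bp upstream of Ssl1. The others were at mRpS23 and CenG1A (521, 2L 13835364 to 13835561), CG13390 and CG17294 (519, 2L 8376779 to 8376986), Atat and Shc (504, 3L 9426776 to 9426965), Pex11ab and CG8320 (485, 2R 15992387 to 15992606) and Fbw5 and CG9147 (456, 2L 6065993 to 6066206). Atat encodes an alpha-tubulin acetyltransferase, Pex11ab a peroxisome division protein and CenG1A a GTPase-activating protein. Replicate 2 gave the higher value at all 10, from 240 to 385, against 190 to 282 in replicate 1.

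Replicate signals rose together across the peaks. The value of a replicate was taken from its overlapping candidate with the nearest summit, which existed for 302 peaks in each replicate and for 300 in both. The median was 42.8 in replicate 1 (quartiles 29.9 and 70.0) and 56.2 in replicate 2 (quartiles 41.1 and 89.9), against 11.2 and 10.7 over all candidates of the same lists. Across the 300 peaks Spearman's rank correlation was 0.701 and Pearson's r of the log2 values 0.704, as a description over sites selected by agreement between lists. Replicate 2 was higher at 239 of the 300, with a median ratio of 1.29, and the scales of the lists may differ. The median shift from the joint summit was 16 bp in replicate 1 and 10 bp in replicate 2. Matching by the nearest summit keeps these shifts small.

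**Figure D4:**
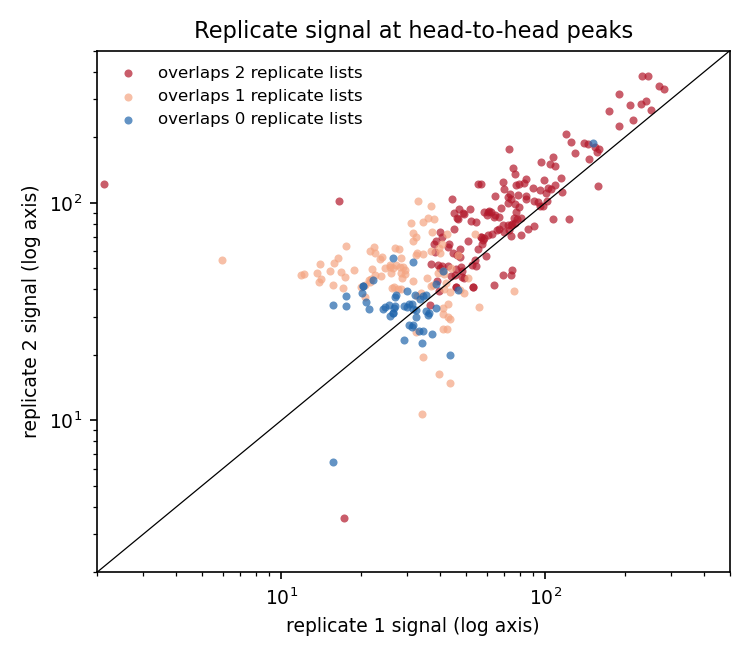
Signal of each head-to-head peak in replicate 1 (x axis) and replicate 2 (y axis), both on log axes and in the authors' enrichment units, for 300 peaks with both values. Colours give how many replicate lists the peak overlaps and the line marks equal values. Most points lie above the line, and peaks in both replicate lists have the higher signals.

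The replicate lists were unequal in length, with 800 peaks in replicate 1 and 979 in replicate 2. Of the 304 peaks, 150 (49.3%) overlapped the thresholded lists of both replicates by at least 1 bp, 22 that of replicate 1 alone, 81 that of replicate 2 alone and 51 (16.8%) no replicate list. The share in both was 43.2% at other promoter peaks (208 of 481) and 32.5% elsewhere (216 of 664). Median signals were 156 for peaks in both lists, 75.6 for those in 1 and 62.3 for those in neither. The conservative list overlapped 259 (85.2%). The 3 peaks of highest signal in neither replicate list were at eIF4EHP and CG18428 (342), yki and Gpat4 (88.3) and CG3104 and RpS21 (86.1). The first stood apart, since its values of 152 in replicate 1 and 188 in replicate 2 were above those of many peaks in both lists. It was 81 bp wide (3R 24109104 to 24109184). eIF4EHP encodes a cap-binding repressor of translation and yki the coactivator of the Hippo pathway.

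At 6 pairs there was a second peak, and these were the 6 head-to-head peaks of lowest signal. The higher and lower signals were 212 and 7.91 at CG10747 and Pyroxd1, 189 and 39.0 at Hrd3 and PTPMT1, 89.7 and 4.55 at dpa and didum, 81.2 and 16.1 at Irbp18 and APP-BP1, 62.7 and 11.1 at CG15011 and CG1309, and 41.6 and 20.9 at Cchl and ND-42. The summits of each pair of peaks were 199 to 205 bp apart. That spacing was common in the list, since 30 of the 48 neighbouring peaks on the arms up to 500 bp apart were 190 to 210 bp apart. Without the second peaks the median signal was 95.6. dpa encodes the helicase subunit Mcm4 and didum a class V myosin, and Hrd3 is a component of endoplasmic reticulum protein degradation.

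Lists of genes for general cell functions had shares both above and below the 21.2% of all genes with a head-to-head candidate summit that had a peak, and no list was tested. Cytoplasmic ribosomal protein genes had a peak in 15 of 34 cases (44.1%), with the highest signals at Ripalpha and RpL7 (200.99), RpL34b and CG8132 (187) and RpL32 and CG7943 (168). Their 15 peaks had a median signal of 87.2, against 94.7 over all 304. Mitochondrial ribosomal protein genes had 10 of 40, near that background, and the 10 peaks had a median signal of 161. They included mRpS10 (613.7), mRpS23 (521) and mRpL23 (440, shared with CG9004). Translation factors had 2 of 13, eIF4EHP and eIF1, and aminoacyl-tRNA synthetases 5 of 16 (31.3%), led by GluProRS (180), SerRS (142) and ThrRS (98.7). These shares moved with the list, and so did the share over all head-to-head genes, which was 14.0% in the list of replicate 1 alone (356 of 2542), 21.0% in that of replicate 2 alone (528 of 2517) and 10.8% with a −log10 IDR of at least 3 (314 of 2909). In the list of replicate 2 alone 9 of 33 cytoplasmic ribosomal protein genes (27.3%) and 0 of 11 translation factors had a peak, against that 21.0%. There 9 of 33 mitochondrial ribosomal protein genes (27.3%) and 4 of 13 synthetases (30.8%) did. In the list of replicate 1 alone 6 of 37 mitochondrial ribosomal protein genes (16.2%) and 3 of 16 synthetases (18.8%) did, against 14.0%. There 13 of 36 cytoplasmic ribosomal protein genes (36.1%) and 1 of 12 translation factors (8.33%) did. With the stricter IDR the cytoplasmic ribosomal protein share was 17.6%, against 10.8%.

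Oxidative phosphorylation genes had a peak in 9 of 27 cases (33.3%), with the highest signals at ND-ASHI and Fum1 (197), wmd and levy (131) and TppII and ND-MWFE (125). ND-ASHI and ND-MWFE encode subunits of respiratory complex I, and levy a subunit of cytochrome c oxidase. Mitochondrial import and assembly genes had 2 of 5, Cchl and Tom7 (51.9). DNA replication and cell cycle genes had 7 of 22 (31.8%), led by PolD2 (209), dpa (89.7) and RnrS (89.7). DNA repair genes had 5 of 19, with Irbp (154, paired with mgr), Ercc1 (102) and mei-41 (87.3), the fly ATR kinase, the highest. In the list of replicate 1 alone 4 of 25 oxidative phosphorylation genes (16.0%) and 5 of 21 replication and cell cycle genes (23.8%) had a peak. The share over all genes there was 14.0%. In the list of replicate 2 alone 6 of 26 oxidative phosphorylation genes (23.1%) and 3 of 21 replication and cell cycle genes (14.3%) did, against 21.0%. Neither replicate alone had a peak at a mitochondrial import gene.

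Insulator, Polycomb and Trithorax factors had 7 of 24 (29.2%), namely Chro (535), brm (332), Cp190 (197), Dref, E(z), Ino80 and Chd1. Cp190 encodes a zinc finger protein of insulators. The Mediator, TFIID and RNA polymerase list had 7 of 36, led by Taf5 (149), Polr2B (145) and MED30 (126). Vesicle transport genes had 10 of 49 (20.4%), led by alphaCOP (223), AP-1sigma (180) and Vps33B (159). Proteasome genes had 3 of 14, Prosbeta2 (77.3), Rpn5 (67.1) and Rpn3 (55.1). Spliceosome genes had 3 of 19, U2af50 (106), snRNP-U1-C (68.9) and Sf3b6 (62.6), and nuclear pore genes 2 of 11, Nup37 (159) and Sec13 (42.0). In the list of replicate 1 alone 4 of 31 Mediator, TFIID and polymerase genes (12.9%) and 0 of 13 proteasome genes had a peak, against 14.0% over all genes there. In the list of replicate 2 alone 7 of 32 (21.9%) and 2 of 13 (15.4%) of the same lists did, against 21.0%. Insulator, Polycomb and Trithorax factors had 5 of 18 (27.8%) in replicate 1 and 8 of 21 (38.1%) in replicate 2.

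The lists close to the known function of Poxn held no head-to-head peak. Chemoreceptor and odorant-binding protein genes had 0 of 20 and sense organ and neuroblast regulators 0 of 3, against 21.2% over all head-to-head genes. No segmentation or homeotic gene had a head-to-head candidate summit, so that list could not hold a peak here. These denominators are small, since most genes of such lists are in no head-to-head pair. All lists were drawn up with earlier results of these data known. A peak in a shared gap was counted for both genes and need not act on the listed gene.

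Both genes of the pair were on a list at 9 pairs. These were GluProRS and AP-1sigma (180), RpS27 and Nup37 (159), Dref and RpL13 (88.1), RpL28 and eIF1 (87.2), RPA1 and Mcm2 (85.7), mRpL39 and Prosbeta2 (77.3), Cdk1 and mRpS7 (69.1), ATPsynCF6 and Sec13 (42.0) and Cchl and ND-42 (41.6 and 20.9). RPA1 and Mcm2 both serve DNA replication, as single-strand binding protein and as helicase subunit. Dref itself encodes the factor that binds the DRE, and its window held 2 copies of CGATA.

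The DRE, CGATA and motif 1 were more frequent at head-to-head promoters than at other promoters, and not more frequent at head-to-head peaks than at other head-to-head candidates, apart from CGATA by a small margin. In these windows, 100 bp to each side of the summit, the DRE occurred at 20 of 304 peaks (6.58%), 7.39% of head-to-head candidates outside the list, 3.12% of other promoter peaks and 0.904% of other promoter candidates outside the list. CGATA occurred at 112 peaks (36.8%), against 36.0%, 28.1% and 23.9% in the same order. Motif 1 occurred at 8 peaks (2.63%), against 4.45%, 1.25% and 0.815%. No head-to-head peak held both the DRE and motif 1, but only 2 head-to-head candidates did. At other promoters 3 of the 8 candidates with both were peaks. Among the 150 peaks with a −log10 IDR of at least 3 the DRE was at 3.33%. Of the head-to-head candidates with a DRE, 20 of 128 were peaks (15.6%), and with motif 1 8 of 73 (10.96%), against 17.6% of the 1567 with neither.

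The TATA word was more frequent at head-to-head peaks than in the other 3 sets, with 138 peaks (45.4%) against 26.3% of head-to-head candidates outside the list, 35.1% of other promoter peaks and 16.0% of other promoter candidates. Its letters are all A and T, and the windows of peaks were the lower in GC, so its part beyond base composition was not tested. The GAGA word occurred at 1 peak (0.329%), at Acbp1 and Piezo, against 1.44%, 5.41% and 3.88%. Motif 6 occurred at 10.9%, 8.62%, 10.2% and 4.75%, and the E-box at 12.2%, 11.7%, 9.36% and 11.2%. The Pax core occurred at 7 peaks (2.30%), against 1.44%, 0.832% and 1.14%, and the Zelda word at 3 (0.987%), against 1.78%, 0.832% and 1.61%. The control word was at 1 peak (0.329%), against 0.0684%, 0.416% and 0.226%.

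**Figure D5:**
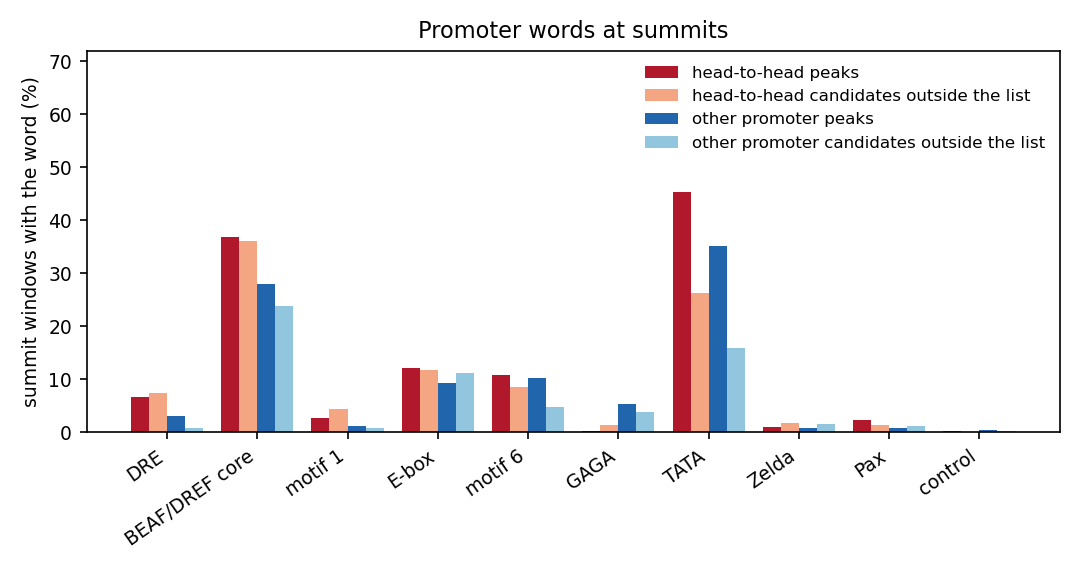
Share of summit windows (100 bp to each side) that hold each word on either strand (y axis, percent) in head-to-head peaks, head-to-head candidates outside the list, other promoter peaks and other promoter candidates outside the list. BEAF/DREF core is CGATA. The bars for the DRE and CGATA are near each other in both head-to-head sets, whereas the TATA word is at 45.4% of peaks and 26.3% of the other head-to-head candidates.

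Median signal was lower at peaks with the DRE than at those with neither the DRE nor motif 1, and alike at those with motif 1. It was 83.1 over the 20 peaks with the DRE, 96.2 over the 8 with motif 1 and 96.9 over the 276 with neither. Over the 92 with CGATA and no DRE it was 83.2, and over the 17 with 3 or more copies of CGATA 75.4. These differences were not tested. The highest with the DRE were at Atat and Shc (504), fws and Lamtor3 (328) and GCS2beta and CG5131 (205), and with motif 1 at Ripalpha and RpL7 (200.99), Faf2 and Grip71 (160) and CG3698 and tzn (118). fws encodes a subunit of a Golgi tethering complex, Lamtor3 a scaffold of lysosomal signalling and Grip71 a protein of the gamma-tubulin ring complex. Copies of the DRE lay a median of 55 bp from the summit at peaks and 53.5 bp at candidates outside the list. The same distances for CGATA were 57 and 51 bp, and for the TATA word 39.5 and 46.5 bp. Of the 190 copies of CGATA at peaks, 154 (81.1%) lay between the TSSs, close to the 81.6% of summits there.

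Arms differed in the share of head-to-head candidates that were peaks. It was 22.1% on 2L (68 of 307), 21.8% on 3L (76 of 348), 16.1% on 3R (77 of 479), 16.0% on 2R (56 of 351) and 9.61% on X (27 of 281). At other promoters X had the highest share of these arms, at 3.97%, against 2.47% to 3.57% on the others. X was also the lowest for head-to-head candidates in each replicate alone, at 7.05% in replicate 1, where the others ranged from 9.45% to 14.8%, and at 10.7% in replicate 2, where they ranged from 15.9% to 22.5%. Arms 4 and Y had no head-to-head candidate.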

How the data were processed

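The authors deposited peak lists on dm6, as a ranked and a thresholded list for each replicate and for the pair, and a conservative version for the pair. In the deposited lists each peak has a signal value, a score scaled from the irreproducible discovery rate (IDR), and the −log10 of the global IDR, which was at least 2.00073 in the deposited thresholded list. The sources used here do not give the aligner, the peak caller, how the signal was normalised or where the IDR was cut. The p-value column deposited by the authors held a constant and was left out. Depth is unknown, so the number of peaks it would allow is unknown. Per the deposited notes both replicates also drew on a common file, so their lists are not fully independent.

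The joint thresholded list (1488 peaks, from 146020 candidates) was the main set. TSSs were the 5' ends of every transcript of the 13968 protein-coding genes on the arms in Ensembl release 115 (BDGP6), 19276 in all, and sequence came from the RefSeq copy of the same assembly. Signal was used within lists only. Words were looked for on either strand in windows that reach 100 bp to each side of the summit. Of the 17 gene lists, 1108 symbols were matched, 11 of them through a renamed symbol, and 6 were not matched. Python 3.11.15 with numpy 2.4.6, pandas 2.3.3 and matplotlib 3.10.9 was used, and 7 of 7 checks on planted data passed. With 1 group of 2 replicates no test was made, and regions are not replicates.

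The peaks, the lists and the words were chosen with earlier results of these data known. Genes are named by a rule. It takes the 10 peaks of highest signal, the 3 narrowest and 3 widest gaps, pairs with both genes on lists and up to 3 peaks of highest signal per list, pairs with more than 1 peak, 3 peaks to either side of the 500 bp limit, the 3 of highest signal in no replicate list and the 3 of lowest signal, and the 3 of highest signal with the DRE and with motif 1. E(z), Ino80, Chd1, pre-mod(mdg4) and the peak with the GAGA word were named after their values were seen. Of the narrowest gaps, the third is not reported here. Alternatives were another TSS definition, limits of 250 and 1000 bp, the conservative list, each replicate alone, a −log10 IDR of at least 3, the upper part of the list by signal, 1 peak per pair, other overlaps, the narrowest pair, windows of 50 bp to each side and only the 10000 candidates of highest signal.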

Additional observations from a re-analysis of the deposited data

How the results depend on the processing

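No paired analysis was possible because there is 1 group. A share counts as moved when it left the 95% binomial interval of the main share. That interval is over regions, pairs or genes, which are not replicates, and is wide for small sets. A median counts as moved when it left the main one by more than the SD between the replicates taken alone, which is small. A count does so when it changed by over 1.5 times. Among the recomputed values 263 stayed within these limits and 70 moved.

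The share of head-to-head candidates in the list was 30.5% with a limit of 250 bp, 7.63% with 1000 bp, 21.0% with 1 peak per pair, 53.2% among the 10000 candidates of highest signal, and 11.7 to 18.1% without a replicate. With a −log10 IDR of at least 3 there were 150 peaks, that share was 8.49% and 6.64% of pairs had a peak. In the upper part by signal these were 190 peaks, 10.8% and 8.25%. Without a replicate there were 173 to 259 peaks and 7.42 to 10.8% of pairs.

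Summits between the TSSs were 74.9% with the outermost TSS only and 74.3% with the narrowest pair. For the same 2 settings the median gap was 267 and 266.5 bp, and it was 252 bp (250 bp limit), 297 bp (1000 bp), 278 bp (conservative list), 269 bp (IDR), 274 bp (signal) and 276 to 278 bp without a replicate. The median signal was 92.4 (outermost TSS), 103 (250 bp), 91.6 (1000 bp), 100.4 (conservative), 158 (IDR), 138 (signal), 95.6 (1 peak per pair) and 62.6 to 63.8 on the scales of the single replicates. The share in both replicate lists was 88.0% (IDR) and 75.3% (signal). Without a replicate the peaks always overlap their own list, so the value is only the share that overlaps the other list. It was 57.1% for peaks of replicate 2 and 86.1% for peaks of replicate 1, and is not comparable with the main share. The median GC content was 32.3% (outermost TSS and 1 peak per pair), 31.8% (250 bp and signal), 33.6% (1000 bp), 32.1% (IDR), 28.7% (windows of 50 bp to each side) and 32.3% without either replicate.

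In windows of 50 bp to each side the DRE was at 2.63%, CGATA at 19.7%, motif 1 at 0.329%, the E-box at 5.92%, motif 6 at 4.93%, the GAGA word at 0% and the TATA word at 29.6%. With the stricter IDR the DRE was at 3.33% and CGATA at 28.0%, with the upper part by signal CGATA was at 31.1%, and the GAGA word was at 0% with the 250 bp limit and 0 to 0.386% without a replicate. By gene list, the stricter IDR gave 17.6% of cytoplasmic ribosomal protein genes and 9.09% of replication and cell cycle genes (2 of 22). The share over all head-to-head genes there was 10.8%. It gave 0 of 14 proteasome genes and 0 of 5 mitochondrial import genes. The last 2 lists were also at 0% in the upper part by signal, for which the share over all head-to-head genes is not given here. The 250 bp limit gave 71.4% of DNA repair genes (5 of 7), against 5 of 19 at 500 bp. The number of these genes with a peak was thus the same, and fewer had a candidate summit. The share of all head-to-head candidate summits in the list was also higher at 250 bp, at 30.5% against 17.2%. The share over all head-to-head genes at 250 bp is not given here. Without a replicate the lists ranged over 16.0 to 23.1% for oxidative phosphorylation and 0 to 8.33% for translation factors. The proteasome list ranged over 0 to 15.4%, and mitochondrial import was at 0%. Over all head-to-head genes the share was 14.0% in replicate 1 alone and 21.0% in replicate 2 alone. The causes were not tested. Single lists hold few genes, and depth, which is unknown, limits all of these counts.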
